A study of Mus musculus with 24 samples.

Results

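The cholesterol synthesis pathway and its SREBP2 control were followed in mouse liver through 29 genes, which were taken by gene symbol from a list of pathway genes and matched to Ensembl identifiers in the authors' deposited comparison tables. The list was chosen with earlier results of these data known. Counts of members set beside shares of all genes are therefore a description and not a test of the pathway. Every one of the 29 symbols had 1 identifier, and all 29 passed the filter on low counts, so they form 29 of the 20514 genes tested among the 56941 genes listed. They comprise 2 genes that supply the acetoacetyl-CoA precursor, 4 of the mevalonate steps, 6 of the isoprenoid and squalene steps, 8 that turn lanosterol into cholesterol, 4 of SREBP2 control, and 5 of sterol handling and sensing. Polyadenylated RNA of liver was sequenced in 24 libraries, 3 for each of 4 genotypes at circadian time 2 (CT2) and circadian time 14 (CT14). WT and KO mice carry Bmal1+/+ and Bmal1-/- and came from heterozygous parents on a C57BL/6J background. F mice carry Bmal1f/f, a floxed Bmal1 without Cre, and LKO mice carry Alb-Cre; Bmal1f/f. The Alb promoter drives Cre mainly in hepatocytes, so other liver cells of LKO mice keep the floxed gene, and F mice lack Cre, so that in LKO against F the deletion and the presence of Cre cannot be told apart. The labels give neither age, sex nor batch, and nothing in them says that replicates came from separate animals, so p-values measure the spread between these samples.

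Cholesterol is built from acetyl-CoA through mevalonate, isoprenoid units, squalene and lanosterol. SREBP2, the product of Srebf2, is a membrane-bound transcription factor that SCAP escorts from the endoplasmic reticulum to the Golgi, where it is cut free to switch on nearly every gene of the pathway. When sterols are plentiful, INSIG proteins hold SCAP back. BMAL1 is a core transcription factor of the circadian clock, and cholesterol synthesis in liver is known to follow the daily cycle of feeding.

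Promoters of 4 members are shown because the results below turn on these genes: Hmgcs1 and Insig2 have the largest differences between genotypes at CT14, Mvk is called in both kinds of deletion, and Insig1 is the best known sterol-responsive gene among the controllers. The letters come from RefSeq on build GRCm38.p6, which is older than the GRCm39 build of the deposited values, and run from 250 bases before to 50 after a start site on the strand of the gene. Hmgcs1 is read from chr13:119690101-119690400 on the plus strand, Mvk from chr5:114444019-114444318 on the plus strand, Insig1 from chr5:28071162-28071461 on the plus strand, and the most upstream start of Insig2 from chr1:121332540-121332839 on the minus strand. Capitals mark matches, on either strand, to the E-box CACGTG bound by BMAL1, the sterol regulatory element TCACNCCAC, the ROR half-site TAGGTCA, and the CCAAT box of the factor NF-Y; no marked bases overlapped.
Hmgcs1: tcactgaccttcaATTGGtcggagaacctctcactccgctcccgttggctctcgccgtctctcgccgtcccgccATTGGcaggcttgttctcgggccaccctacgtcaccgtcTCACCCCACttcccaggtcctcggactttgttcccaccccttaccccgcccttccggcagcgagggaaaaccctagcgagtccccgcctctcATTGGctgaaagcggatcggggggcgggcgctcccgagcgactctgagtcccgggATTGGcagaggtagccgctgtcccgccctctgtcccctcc
Mvk: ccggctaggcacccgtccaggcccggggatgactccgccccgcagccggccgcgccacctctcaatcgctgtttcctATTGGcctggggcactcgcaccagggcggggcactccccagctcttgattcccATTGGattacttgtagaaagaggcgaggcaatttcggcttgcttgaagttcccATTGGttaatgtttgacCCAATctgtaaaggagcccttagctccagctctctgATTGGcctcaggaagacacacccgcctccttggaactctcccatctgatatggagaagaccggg
Insig1: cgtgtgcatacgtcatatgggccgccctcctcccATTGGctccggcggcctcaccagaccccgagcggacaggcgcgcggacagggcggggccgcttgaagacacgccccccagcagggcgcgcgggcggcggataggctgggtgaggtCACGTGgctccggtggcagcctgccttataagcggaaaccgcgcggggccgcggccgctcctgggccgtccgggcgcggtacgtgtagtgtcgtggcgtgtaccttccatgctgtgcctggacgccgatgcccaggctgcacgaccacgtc
Insig2: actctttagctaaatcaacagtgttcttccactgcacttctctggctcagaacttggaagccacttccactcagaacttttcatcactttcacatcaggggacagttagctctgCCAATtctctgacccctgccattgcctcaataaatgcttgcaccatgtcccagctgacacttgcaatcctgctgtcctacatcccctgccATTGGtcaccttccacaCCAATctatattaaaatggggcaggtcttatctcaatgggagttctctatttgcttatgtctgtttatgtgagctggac
The Hmgcs1 window holds the sterol element at position -137 from its start and 4 CCAAT boxes. The Mvk window holds 5 CCAAT boxes, the Insig1 window an E-box at -101 and 1 CCAAT box, and this Insig2 window 3 CCAAT boxes and no E-box. Windows of the other Insig2 starts, not shown, held none of the marked motifs. A gene is counted below if any of its windows held the match. The table held promoters for 23 of the 29 members. A CCAAT box was present for 19 of the 23 (82.6%), against 41.1% of all 27025 genes with a promoter, and the GC box GGGCGG, not capitalised, also for 19 (82.6%), against 38.2%. An E-box was present for 5 (21.7%: Dhcr7, Hsd17b7, Insig1, Sc5d and Scap), against 8.09% of all genes. The sterol element was matched only in Hmgcs1 among the 23 (1.44% of all genes), and the ROR half-site only in Dhcr7 (2.97%). These are letter matches in short windows and not measured binding sites. The shares of all genes were not limited to genes expressed in liver or to windows of like content of G and C. The gaps therefore cannot be read as particular to this pathway.

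Levels are given as CPM (counts scaled to library size, with TMM scaling) when libraries are compared. Deposited TPM, which are per length, are given when genes are compared or are summed within libraries. Fdps, which makes farnesyl diphosphate, had the highest TPM over the 24 libraries (median 591.8, from 234.1 to 1289), followed by Hmgcs1 (median 325.7, from 45.6 to 663.4) and Insig1 (median 308.2, from 130.7 to 507.4). The ranges of these 3 genes overlapped. Mylip (median 7.02 TPM) and Ggps1 (median 2.56 TPM, with a lowest count of 159 reads) were the least abundant. Some values are uncertain because sequence is shared: in stretches of 75 bases, 80.4% of the Fdps transcript also occurs in other genes, mostly the overlapping Gm43738, 55.3% of Acat3 and 40.7% of Acat2 occur elsewhere, mostly in each other, and 29.1% of Idi1. Of Fdft1, 25.4% occurs elsewhere, mostly in Ctsb on the opposite strand, and of Hmgcs1 12.2%, in Gm48342 on the opposite strand. Acat3 also overlaps Tcp1 on the opposite strand, and Tm7sf2 overlaps Vps51 on its own strand. The library kit keeps strand, but whether counting used it is not given in the sources used here.

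Libraries held between 88995259 and 131544733 counts. Bmal1, the deleted gene, stood at 30.7 to 33.8 CPM in WT and 7.15 to 7.57 in KO at CT2, and at 26.6 to 29.8 in F and 6.57 to 7.91 in LKO, a log2 difference of -2.11 ± 0.36 (SE) in KO and -1.95 in LKO. At CT14, where Bmal1 is near its daily low (2.93 to 8.16 CPM in WT, 3.26 to 14.97 in F), KO (6.66 to 7.53) overlapped WT and LKO (5.46 to 5.96) overlapped F, so that time of day gives no check of the label. All 6 hepatocyte markers were found, and Alb was the largest part of their sum (median 58640 CPM, against 87700 for the sum). Their summed level was lower in the deleted groups at CT14: 91510 to 106700 CPM in WT against 58600 to 79720 in KO, and 90460 to 133600 in F against 59570 to 70140 in LKO. At CT2 it was 85740 to 116000 in WT, 52630 to 89650 in KO, 99890 to 104100 in F and 61090 to 82860 in LKO, so LKO lay below F there too. Summed Kupffer and endothelial markers overlapped in both pairs at both times. Stellate markers were lower in KO than in WT at CT14 (196 to 251 CPM against 256 to 309). Summed cholangiocyte markers were higher without overlap in KO at CT2 (68.2 to 176 against 42.9 to 63.1) and in LKO at CT14 (73.9 to 87.3 against 37.0 to 73.3). Spp1 was the largest part of that sum (median 60.8 CPM over all libraries, against 70.7 for the sum). Krt19, Krt7 and Epcam had medians of 1.24, 0.723 and 1.21 CPM, so the sum mostly follows Spp1. In such bulk RNA, fewer cells of a type and less RNA per cell cannot be told apart, and the part of these differences in the results below was not tested. The 7 pancreatic acinar markers summed to 1672 CPM in F CT2 replicate 3 and 461.1 in F CT14 replicate 3, with a lowest library of 21.8. Spermatid markers summed to 4.22 to 19.9 CPM in the 12 F and LKO libraries and to 4.24 and 4.83 in KO CT2 replicate 2 and KO CT14 replicate 1, against at most 0.407 in the other 10. Ddx3y, a Y-linked gene, stood at 3.86 to 9.61 CPM in 3 libraries of CT2 (replicate 3 of F, replicate 3 of LKO and replicate 1 of KO), against 25.7 to 48.5 in the other 21 libraries. Counts of calls without these libraries are given below, and the part of these transcripts in the results was not otherwise tested.

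Loss of Bmal1 in the whole animal went with higher levels of 14 of the 20 synthesis enzymes and of Insig2. Averaged over both times, 15 of the 29 members rose in KO against WT and none fell (edgeR quasi-likelihood test, Benjamini-Hochberg adjusted p under 0.05 over all genes; these are the genes called below). Of all genes tested, 5.40% passed that test, split into 3.11% higher and 2.29% lower. The median log2 difference of the members was 0.64, against 0.01 over all genes, and 28 of 29 differences were positive. Called higher were 1 of 2 precursor genes, all 4 mevalonate genes, 4 of 6 isoprenoid and squalene genes, 5 of 8 post-lanosterol genes, 1 of 4 control genes (Insig2) and none of the 5 handling and sensing genes. Hmgcs1 (1.64 ± 0.29, adjusted p = 0.00155), Lss (1.25 ± 0.21, adjusted p = 0.000759) and Mvd (1.19 ± 0.28, adjusted p = 0.0155) had the largest log2 differences ± SE. Calls of 9 genes (Acat2, Hmgcs1, Mvk, Pmvk, Fdps, Lss, Cyp51, Msmo1 and Nsdhl) were kept under every alternative setting tried. Without WT CT14 replicate 2, the call was lost for Mvd, Fdft1, Sqle, Hsd17b7 and Dhcr7, which left 10. Over the 12 fits without 1 library, Sqle and Dhcr7 each lost the call in 9, Hsd17b7 in 8 and Fdft1 in 3. Insig2 lost it only without WT CT2 replicate 3 (adjusted p = 0.0529). Without the 2 KO libraries with spermatid transcripts, it was lost for Sqle (adjusted p = 0.0546), Hsd17b7 (adjusted p = 0.0787) and Dhcr7 (adjusted p = 0.0756), which left 12. Dhcr7 was also lost without the 2 F libraries with pancreatic transcripts (adjusted p = 0.0534), which share the estimate of the spread. The authors' deposited DESeq2 table is not among these settings. Over both times in KO it did not call Hmgcs1 (1.265, adjusted p = 0.139) or Insig2 (0.624, adjusted p = 0.43). It did call Idi1 and Tm7sf2, which the fit to all libraries did not.

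Taken time by time, members were called in KO at CT14 and not at CT2, although the difference between the times passed its own test only for Hmgcs1 and Insig2 (below). At CT14, 14 members rose and none fell, with 5.31% of all genes called (3.15% higher and 2.15% lower), and the median log2 difference of the members was 0.91, against 0.01 over all genes. All 3 KO libraries lay above all 3 WT libraries for 20 members, 17 of them enzymes, the others Srebf2, Scap and Insig2; of all genes, 13.4% were separated that way. At CT2 no member was called, with 0.517% of all genes called and 0.327% called higher. Fdps, Ggps1, Tm7sf2 and Nsdhl lay above WT there without overlap (7.10% of all genes) and Nr1h2 below (6.94%). There 5 members had an unadjusted p under 0.05, DESeq2 and limma also called none, the median log2 difference was 0.30 against 0.00 over all genes, and the authors' deposited table called 1, Mvd (1.15, adjusted p = 0.0248). The share of all genes under the unadjusted cut is not given, here or for the like counts below. Without WT CT14 replicate 2, the count at CT14 was 9.

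**Figure D1:**
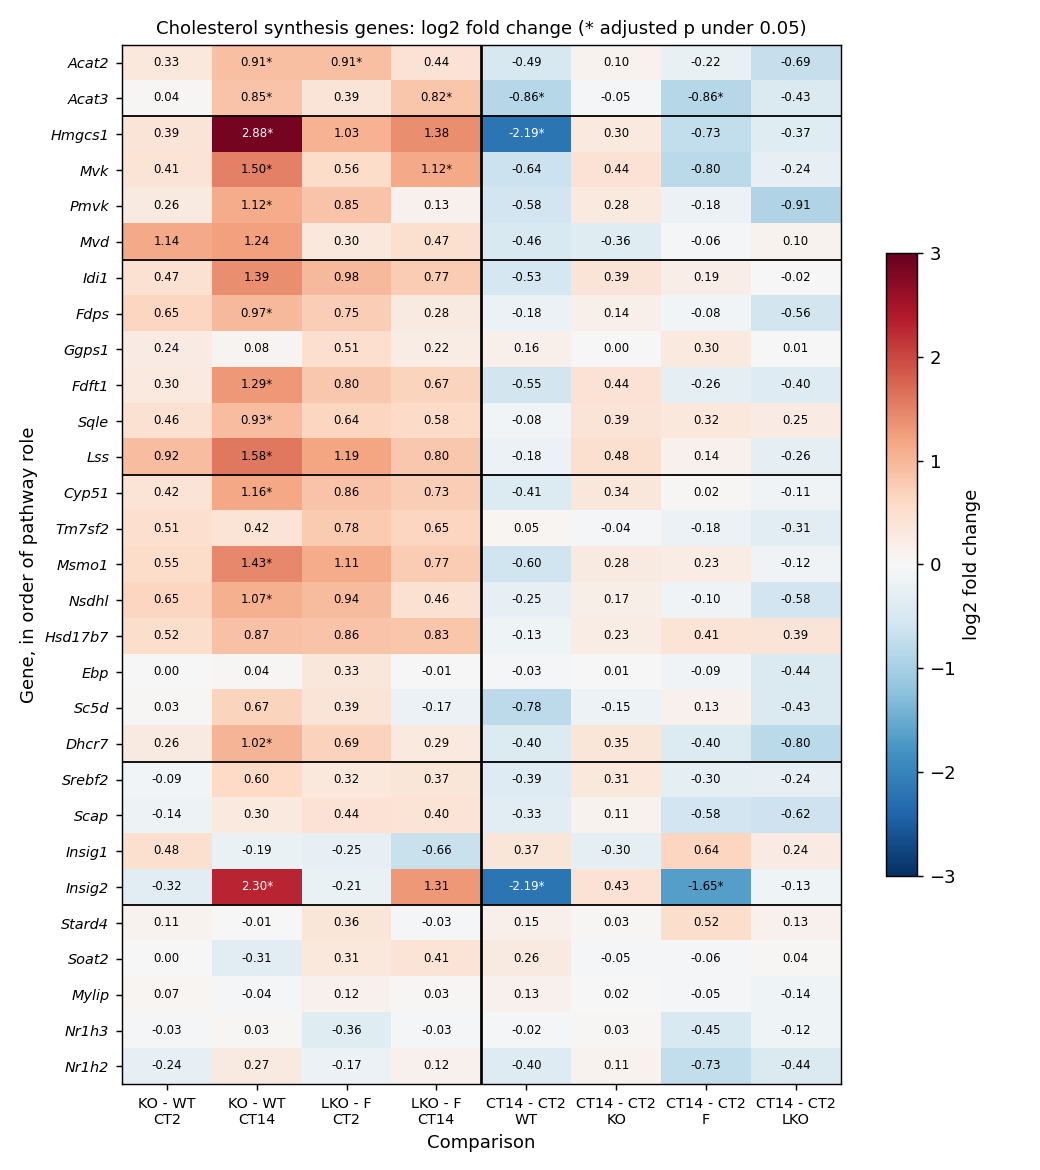
Log2 differences of the 29 members (vertical, by role) in 8 comparisons (horizontal), with colour for direction and size and an asterisk for adjusted p under 0.05. The asterisks of KO against WT stand among the enzymes and Insig2, 14 of them at CT14 and none at CT2, and the 5 genes of sterol handling and sensing have none there.

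The precursor genes encode cytosolic acetoacetyl-CoA thiolase in mouse (Acat2) and its close copy Acat3. At CT14 Acat2 stood at 116, 97.1 and 106 CPM in WT, 189, 207 and 204 in KO, 104, 148 and 98.0 in F and 159, 168 and 149.8 in LKO. At CT2 it stood at 105, 198 and 145 CPM in WT, 174, 229 and 159 in KO, 130.4, 135 and 144 in F and 233, 235 and 302 in LKO. Both deleted groups lay above their controls at CT14, and at CT2 LKO also lay above F while KO overlapped WT. Acat2 rose in KO at CT14 (0.91 ± 0.20, adjusted p = 0.0065). It was the only member called in LKO at CT2 by the fit to all libraries (0.91 ± 0.20, adjusted p = 0.0421). That call was lost without the libraries low in Ddx3y (adjusted p = 0.121) and without those with pancreatic transcripts (adjusted p = 0.0547). The authors' deposited DESeq2 table did not call Acat2 there (adjusted p = 0.104). Acat3 stood at 235, 221 and 239 CPM in WT, 417, 369 and 467 in KO, 152, 217 and 168 in F and 285, 395 and 270.1 in LKO at CT14. The levels at CT2 were 294, 458 and 512 CPM in WT, 400.4, 531 and 367 in KO, 300.2, 366 and 310.2 in F and 457, 426 and 399 in LKO. Its control libraries were lower at CT14 than at CT2 without overlap, in WT and in F, and it rose at CT14 in KO (0.85 ± 0.20, adjusted p = 0.0125) and in LKO (0.82 ± 0.20, adjusted p = 0.0333). The call in LKO was lost without F CT14 replicate 1 or 3 or LKO CT14 replicate 1 or 2, with adjusted p up to 0.25. That in KO was lost without WT CT14 replicate 2 or KO CT14 replicate 3, with adjusted p up to 0.0655. Because Acat2 and Acat3 share sequence, part of either value may belong to the other.

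Hmgcs1, cytosolic HMG-CoA synthase, opens the mevalonate steps and had the largest difference of any member. At CT14 Hmgcs1 stood at 154, 108 and 92.0 CPM in WT, 617, 1083 and 904 in KO, 207, 449 and 202 in F and 818, 643 and 780.2 in LKO. Its CT2 levels were 409, 888 and 319 CPM in WT, 400.5, 964 and 754 in KO, 666, 467 and 287 in F and 1074, 1102 and 727 in LKO. The 3 WT libraries at CT14 were the lowest of all 24, and KO was 7.36-fold higher there (2.88 ± 0.43, adjusted p = 0.000289), whereas at CT2 the groups overlapped (0.39 ± 0.40, adjusted p = 0.95). LKO lay above F without overlap at both times, and the mean over both was called (1.21 ± 0.29, adjusted p = 0.0222). That call was lost in 8 of 12 fits without 1 library (adjusted p up to 0.0716). It was also lost without the F libraries with pancreatic transcripts (adjusted p = 0.125).

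The 3 enzymes that follow turn mevalonate into isopentenyl diphosphate. Mvk, mevalonate kinase, stood at 28.2, 24.1 and 25.8 CPM in WT, 50.9, 86.6 and 83.5 in KO, 31.9, 37.0 and 28.97 in F and 70.9, 65.6 and 77.0 in LKO at CT14. CT2 libraries held 30.7, 61.5 and 29.8 CPM in WT, 47.8, 59.6 and 54.9 in KO, 63.6, 40.1 and 67.2 in F and 68.0, 66.8 and 116 in LKO. Mvk separated deleted from control libraries in both pairs at CT14 and was called in each (KO 1.501 ± 0.28, adjusted p = 0.00175; LKO 1.12 ± 0.27, adjusted p = 0.0336). The call in LKO at CT14 was lost without any 1 of the 6 libraries compared (adjusted p up to 0.174) and without the F libraries with pancreatic transcripts (adjusted p = 0.161). Pmvk, phosphomevalonate kinase, stood at 54.4, 37.0 and 48.7 CPM in WT, 98.2, 121 and 86.1 in KO, 58.5, 88.6 and 63.9 in F and 78.4, 73.7 and 78.5 in LKO at CT14. At CT2 it stood at 73.4, 84.6 and 50.9 CPM in WT, 99.8, 69.0 and 81.9 in KO, 75.1, 81.3 and 83.3 in F and 116, 127 and 190.4 in LKO. KO lay above WT at CT14 only (1.12 ± 0.22, adjusted p = 0.00305), and LKO above F at CT2 only (0.85 ± 0.22, adjusted p = 0.0973), where the difference was not called. Mvd, mevalonate diphosphate decarboxylase, stood at 36.6, 20.3 and 31.0 CPM in WT, 31.0, 95.4 and 81.3 in KO, 77.0, 89.0 and 52.3 in F and 92.5, 92.1 and 118 in LKO at CT14. The levels at CT2 were 28.5, 62.0 and 30.1 CPM in WT, 60.8, 121 and 84.1 in KO, 88.4, 49.2 and 90.3 in F and 74.3, 72.3 and 135 in LKO. KO CT14 replicate 1 lay within the WT range, and Mvd was called in the mean of both times but at neither time alone. It was higher in F than in WT (1.11 ± 0.28, adjusted p = 0.04), and in LKO against F it was not called (0.39 ± 0.28, adjusted p = 0.684).

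**Figure D2:**
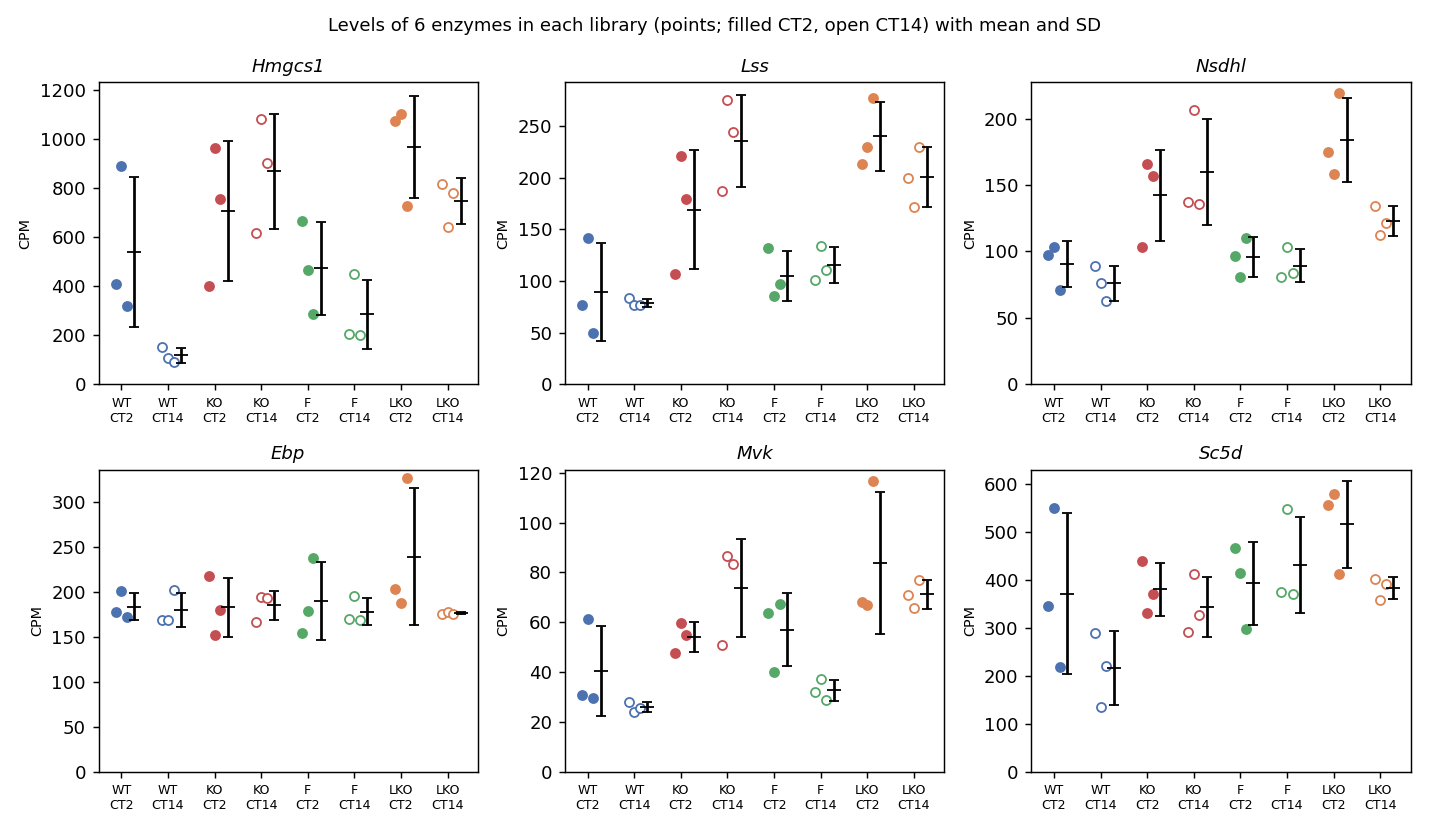
TMM-scaled CPM of 6 enzymes in every library (points; filled at CT2, open at CT14), by genotype, with the mean and SD of 3 libraries. Hmgcs1 in WT at CT14 lies between 92.0 and 154 CPM, below every other library, and Ebp overlaps between all genotypes.

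The isoprenoid and squalene steps lead to lanosterol. Fdps stood at 350.4, 217 and 229.7 CPM in WT, 436, 667 and 462 in KO, 468, 508 and 374 in F and 581, 539 and 518 in LKO at CT14. Its CT2 levels were 298, 407 and 199.8 CPM in WT, 468, 514 and 434 in KO, 444, 376 and 612 in F and 673, 691 and 1041 in LKO. Fdps was higher in KO than in WT without overlap at both times and was called at CT14 (0.97 ± 0.26, adjusted p = 0.0263), though most of its transcript is shared with Gm43738. This call at CT14 was lost in 3 of 6 fits without 1 compared library (adjusted p up to 0.148). It was also lost in the fit to the compared groups alone (adjusted p = 0.0625). Fdft1, squalene synthase, stood at 133, 94.8 and 136 CPM in WT, 213, 331 and 347 in KO, 158, 208 and 139.9 in F and 286, 240.5 and 276 in LKO at CT14. CT2 libraries held 138, 271 and 126 CPM in WT, 175, 255 and 228 in KO, 203, 159 and 244 in F and 284, 297 and 476 in LKO. It rose in KO at CT14 (1.29 ± 0.28, adjusted p = 0.00729) and in LKO over both times (0.73 ± 0.20, adjusted p = 0.0443). The call in KO was lost without WT CT14 replicate 2 (adjusted p = 0.0585). That in LKO was lost in 8 of 12 fits without 1 library (adjusted p up to 0.135) and under 5 of 11 other settings. Sqle, squalene epoxidase and a rate-limiting step, stood at 107, 86.0 and 97.1 CPM in WT, 134, 216 and 203 in KO, 116, 154 and 110.3 in F and 191, 175 and 201 in LKO at CT14. At CT2 it stood at 90.6, 153 and 61.4 CPM in WT, 90.4, 177 and 154 in KO, 97.1, 103 and 104 in F and 147, 137 and 192 in LKO. Its call in KO at CT14 (0.93 ± 0.27, adjusted p = 0.0473) lay close to the threshold and was lost without 5 of the 6 libraries compared, each left out in turn.

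Lss, lanosterol synthase, closes the ring system and was among the steadiest calls of the pathway. It stood at 83.5, 77.1 and 76.7 CPM in WT, 188, 275 and 245 in KO, 101, 134 and 111 in F and 200.1, 172 and 230.1 in LKO at CT14. The levels at CT2 were 76.9, 142 and 49.5 CPM in WT, 107, 221 and 179 in KO, 132, 85.8 and 97.3 in F and 213, 229.8 and 277 in LKO. The WT libraries at CT14 lay close together and far below every KO library, and the groups of LKO and F did not overlap at either time. Lss rose in KO (1.25 ± 0.21, adjusted p = 0.000759, mean of both times) and in LKO (0.99 ± 0.21, adjusted p = 0.00784), and both calls held under every alternative setting. Idi1, isopentenyl diphosphate isomerase, ranged from 50.8 to 397 CPM and was called in no comparison by the fit to all libraries, with 3 KO libraries above 3 WT libraries at CT14 (1.39 ± 0.43, adjusted p = 0.0677). The fit to the compared groups alone did call Idi1 higher in KO at CT14 (1.40, adjusted p = 0.00604) and over both times (0.93, adjusted p = 0.0248). The authors' deposited table called it higher at CT14 in KO (adjusted p = 4.79e-10) and in LKO (adjusted p = 0.00436), and in KO over both times (adjusted p = 0.00411). Ggps1, which makes geranylgeranyl diphosphate off the sterol branch, ranged from 1.49 to 5.90 CPM and was called in none.

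After lanosterol, Cyp51 removes a methyl group from the sterol core. Cyp51 stood at 203, 118 and 137 CPM in WT, 321, 358 and 346 in KO, 212, 259 and 158 in F and 362, 320.1 and 358 in LKO at CT14. Its CT2 levels were 177, 274 and 157 CPM in WT, 191, 334 and 288 in KO, 215, 234 and 168 in F and 399.7, 348 and 373 in LKO. It rose in KO at CT14 (1.16 ± 0.24, adjusted p = 0.00462) and in LKO over both times (0.79 ± 0.17, adjusted p = 0.0089). Msmo1 and Nsdhl then take off the remaining methyl groups at another carbon. Msmo1 stood at 121, 116 and 72.6 CPM in WT, 225, 329 and 281 in KO, 150.4, 198 and 135 in F and 283, 261 and 281 in LKO at CT14. CT2 libraries held 121, 246 and 102 CPM in WT, 176, 258 and 254 in KO, 142, 171 and 100.3 in F and 328, 296 and 269.8 in LKO. Its LKO libraries lay above all F libraries at both times, and its KO libraries above WT at CT14 (1.43 ± 0.28, adjusted p = 0.00332). Nsdhl stood at 89.0, 76.1 and 62.7 CPM in WT, 137, 206 and 136 in KO, 80.9, 103 and 83.5 in F and 134, 112 and 122 in LKO at CT14. At CT2 it stood at 97.2, 103 and 70.9 CPM in WT, 103, 166 and 157 in KO, 96.5, 80.7 and 110.4 in F and 175, 158 and 219 in LKO. Nsdhl separated deleted from control libraries in both pairs at both times, as did Fdps among all members, and was called in KO (0.86 ± 0.15, adjusted p = 0.00109) and LKO (0.70 ± 0.15, adjusted p = 0.00936) over both times.

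Hsd17b7 reduces the keto group left by Nsdhl. It stood at 62.6, 44.1 and 42.7 CPM in WT, 71.0, 115 and 87.6 in KO, 59.7, 73.2 and 51.1 in F and 102, 99.8 and 126 in LKO at CT14. The levels at CT2 were 57.4, 63.0 and 43.0 CPM in WT, 37.2, 103 and 94.0 in KO, 48.2, 46.8 and 43.3 in F and 85.8, 90.9 and 73.9 in LKO. Hsd17b7 lay above the controls in both pairs at CT14, while KO CT2 replicate 1 was the lowest of all 24 libraries, and it was called over both times in KO (0.69 ± 0.19, adjusted p = 0.0359) and LKO (0.84 ± 0.19, adjusted p = 0.0152). Tm7sf2, a sterol reductase of the endoplasmic reticulum, stood at 183, 150.3 and 179 CPM in WT, 208, 217 and 259.9 in KO, 165, 185 and 137 in F and 272, 245 and 249 in LKO at CT14. Its CT2 levels were 135, 202 and 158 CPM in WT, 236, 216 and 254 in KO, 163, 147 and 243 in F and 272, 232 and 446 in LKO. Tm7sf2 was called in LKO (0.72 ± 0.15, adjusted p = 0.0101) and not in KO (0.47 ± 0.15, adjusted p = 0.0833). The fit to the compared groups alone gave the opposite, a call in KO (0.47, adjusted p = 0.0288) and none in LKO (0.72, adjusted p = 0.0618), and the authors' deposited table called both (adjusted p = 0.00247 and 0.0213). Dhcr7, the enzyme of the last step in one branch, stood at 121, 90.5 and 106 CPM in WT, 174, 254 and 215 in KO, 98.6, 148 and 118 in F and 159, 138 and 149.6 in LKO at CT14. CT2 libraries held 138, 183 and 98.3 CPM in WT, 141, 189 and 173 in KO, 181, 149.8 and 150.1 in F and 190.4, 191 and 394 in LKO. LKO CT2 replicate 3 stood far above the other libraries, and Dhcr7 was called in KO at CT14 (1.02 ± 0.26, adjusted p = 0.0204) and not in LKO (0.49 ± 0.18, adjusted p = 0.186). The call of Dhcr7 in KO at CT14 was lost in 4 of 6 fits without 1 compared library (adjusted p up to 0.115). Ebp, the sterol isomerase, ranged from 152 to 326 CPM and Sc5d, the lathosterol desaturase, from 136 to 578. Neither was called in any comparison by the fit to all libraries, limma on log2(TPM + 1) called Sc5d higher in KO at CT14 (adjusted p = 0.0144), and Ebp had the smallest difference of all 20 enzymes in KO (0.02 ± 0.13, adjusted p = 0.985).

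Among the controllers, only Insig2 was called in a knockout comparison by the fit to all 24 libraries; calls of the others by other fits are given beside them. Srebf2 stood at 61.8, 60.6 and 79.5 CPM in WT, 90.5, 100.1 and 117 in KO, 70.6, 82.1 and 78.1 in F and 102, 88.8 and 108 in LKO at CT14. At CT2 it stood at 79.1, 111 and 74.3 CPM in WT, 65.8, 96.2 and 86.2 in KO, 79.9, 76.9 and 127 in F and 89.8, 98.6 and 166 in LKO. At CT14 its deleted libraries lay above the controls in both pairs, by less than most enzymes and without a call (KO 0.60 ± 0.23, adjusted p = 0.153; LKO 0.37 ± 0.23, adjusted p = 0.668). The authors' deposited table called Srebf2 higher at CT14 in KO (0.60, adjusted p = 0.012) and in LKO (0.38, adjusted p = 0.0384). Scap ranged from 92.1 to 298 CPM and was not called (KO at CT14 0.30 ± 0.24, adjusted p = 0.596), although it too was separated at CT14 in both pairs. In LKO at CT14, Scap was called higher by the fit to the compared libraries alone (0.40, adjusted p = 0.0436) and in the authors' deposited table (adjusted p = 0.00596).

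Insig1 and Insig2, which retain SCAP in the endoplasmic reticulum, differed in their values. Insig1, itself a classic SREBP2 target, stood at 556, 278 and 365 CPM in WT, 261, 447 and 344 in KO, 949.5, 788 and 713 in F and 534, 523 and 495 in LKO at CT14. The levels at CT2 were 290.3, 436 and 203 CPM in WT, 368, 670.1 and 255 in KO, 638, 442 and 490.4 in F and 519.9, 453 and 344 in LKO. Insig1 overlapped between KO and WT at both times, and at CT14 every LKO library lay below every F library (-0.66 ± 0.32, adjusted p = 0.476), the opposite direction to the enzymes, without a call. The authors' deposited table did call it lower there (-0.65, adjusted p = 3.44e-05), as did a fit to the 6 compared libraries alone (-0.66, adjusted p = 0.0239). Insig2, known in liver for a transcript that insulin suppresses, stood at 92.1, 88.4 and 118 CPM in WT, 482, 427 and 556 in KO, 70.9, 143 and 111 in F and 246, 302 and 258 in LKO at CT14. Its CT2 levels were 415, 603 and 342 CPM in WT, 383, 332 and 371 in KO, 496, 389 and 136 in F and 316, 365 and 203 in LKO. Control livers dropped to 70.9 to 143 CPM at CT14, while KO stood at 427 CPM or more and LKO at 246 or more. Insig2 rose in KO at CT14 by 4.91-fold (2.30 ± 0.35, adjusted p = 0.00033). In LKO the groups did not overlap there either, with adjusted p just above the threshold (1.31 ± 0.34, adjusted p = 0.0531), and the authors' deposited table called it (1.31, adjusted p = 1.28e-07).

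**Figure D3:**
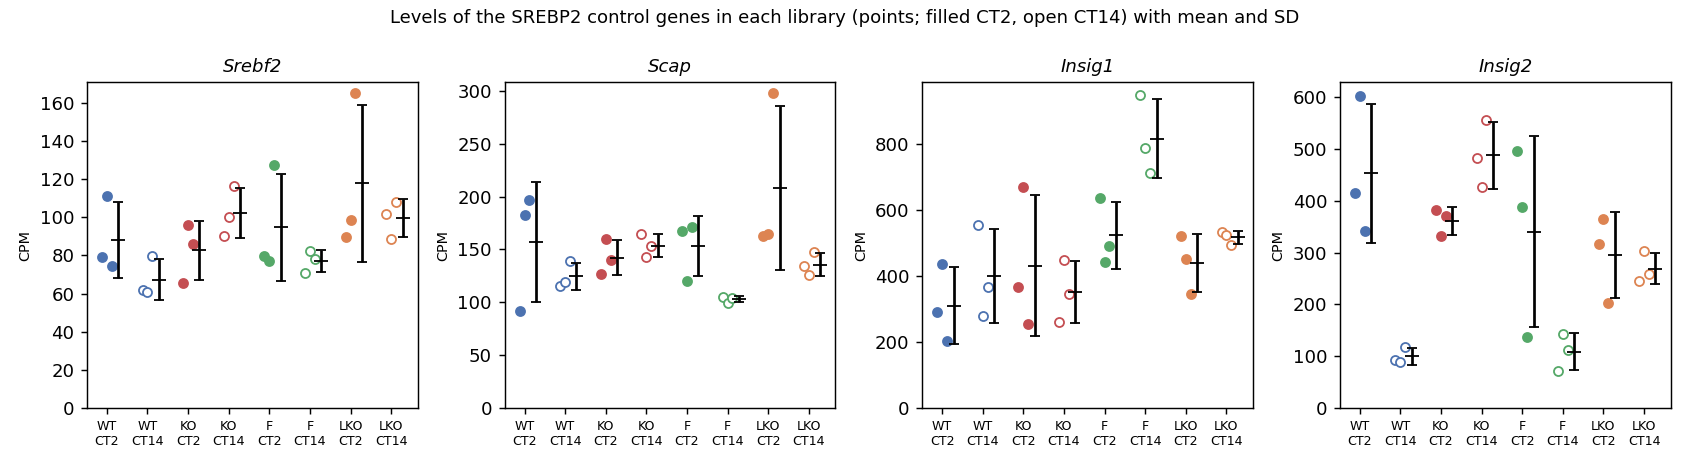
TMM-scaled CPM of Srebf2, Scap, Insig1 and Insig2 in every library (points; filled at CT2, open at CT14), with the mean and SD of 3 libraries. Insig2 is low only in the 6 WT and F libraries of CT14 and in 1 F library of CT2, and Insig1 is highest in F at CT14.

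The 5 genes of sterol handling and sensing gave no call in the fit to all libraries. Stard4, a sterol carrier, ranged from 63.1 to 144 CPM; Soat2, which esterifies cholesterol, from 22.4 to 40.7; Mylip, a ubiquitin ligase for lipoprotein receptors, from 9.53 to 17.1; and the liver X receptors Nr1h3 and Nr1h2 from 109 to 240 and from 32.7 to 84.0. Soat2 lay above F in LKO at CT14 without overlap and was called over both times by limma on log2(TPM + 1) (adjusted p = 0.0228), and DESeq2 called Nr1h2 lower at CT14 in F (adjusted p = 0.0251). Their log2 differences in KO against WT over both times ran from -0.15 (Soat2) to 0.05 (Stard4), with SE of 0.13 to 0.17.

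Livers of LKO mice also held more transcript of many enzymes. Over both times, 11 members, all enzymes, rose in LKO against F and none fell, with 3.13% of all genes called and 1.70% called higher. The median log2 difference of the members was 0.51, against -0.01 over all genes. An unadjusted p under 0.05 was found for 20 members, and the share of all genes under that cut is not given. Called were both precursor genes, 2 of 4 mevalonate genes (Hmgcs1 and Mvk), 2 of 6 isoprenoid and squalene genes (Fdft1 and Lss) and 5 of 8 post-lanosterol genes (Cyp51, Tm7sf2, Msmo1, Nsdhl and Hsd17b7). Without the 2 F libraries that held pancreatic transcripts, 5 calls were left (Acat2, Mvk, Lss, Tm7sf2 and Nsdhl) and the median was 0.50. Without the 3 libraries low in Ddx3y, Fdft1 lost its call (adjusted p = 0.083). Without F CT14 replicate 3 alone, 7 were left. Of the 11 calls, 3 (Acat2, Lss and Nsdhl) were kept under every alternative setting tried. Hmgcs1 and Fdft1 each lost the call in 8 of 12 fits without 1 library. Over both times in LKO, the authors' deposited DESeq2 table did not call Mvk (0.792, adjusted p = 0.0536) or Acat3 (0.560, adjusted p = 0.297). It did call Sqle (0.611, adjusted p = 0.00532), which the fit to all libraries did not.

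Single times gave few calls in LKO. At CT14, 2 members rose (Acat3 and Mvk), with 1.73% of all genes called and 0.814% called higher, and 19 lay above F without overlap, against 11.9% of all genes, with Insig1 below, against 11.7%. A fit to the 6 libraries of that comparison alone called 9, of which 8 were higher and Insig1 lower, and the authors' deposited table called 16, of which 15 were higher. The shares of all genes called in this paragraph belong to the fit to all 24 libraries. Shares for the other fits are not given, so their counts of members have no such measure beside them. Leaving out F CT14 replicate 1 or 3, or LKO CT14 replicate 1 or 2, left no call at CT14. At CT2 only Acat2 rose, with 0.400% of all genes called, and 13 members lay above F without overlap, against 6.10% of all genes, and none below, against 4.46%. There DESeq2 called 7, limma 6, and the fit to the 6 libraries alone 0, as did the fit without the 3 libraries low in Ddx3y. Without F CT2 replicate 3 the count was 3, and without any 1 of the other 5 libraries it was 0. Taking the replicate number as a block, the count at CT2 was 2, Acat2 (0.92, adjusted p = 0.0325) and Msmo1 (1.15, adjusted p = 0.0387). The authors' deposited DESeq2 table called 2 members higher at CT2, Lss (1.189, adjusted p = 0.0166) and Msmo1 (1.110, adjusted p = 0.0298). It did not call Acat2 there (0.909, adjusted p = 0.104).

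The deletions were compared directly as the KO difference minus the LKO difference over both times. No member was called, against 0.107% of all genes, 1 member had an unadjusted p under 0.05, and DESeq2 and limma called 0. The largest gaps were Mvd (0.80 ± 0.40 in log2) and Insig1 (0.60 ± 0.32), with Hmgcs1 at 0.43 ± 0.40 and Lss at 0.25 ± 0.29. The comparisons with WT and with F share no libraries. Of the 15 genes called in KO and the 11 called in LKO, 9 were called in both, 60% of the KO list and 81.8% of the LKO list: Acat2, Hmgcs1, Mvk, Fdft1, Lss, Cyp51, Msmo1, Nsdhl and Hsd17b7. The overlap of the KO and LKO calls over all genes is not given, so these percentages have no measure to stand against. Among the 9, only Acat2, Lss and Nsdhl kept both calls under every alternative setting. Pmvk, Mvd, Fdps, Sqle, Dhcr7 and Insig2 were called in KO alone and Acat3 and Tm7sf2 in LKO alone, and none of these 8 differed between the deletions by test.

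**Figure D4:**
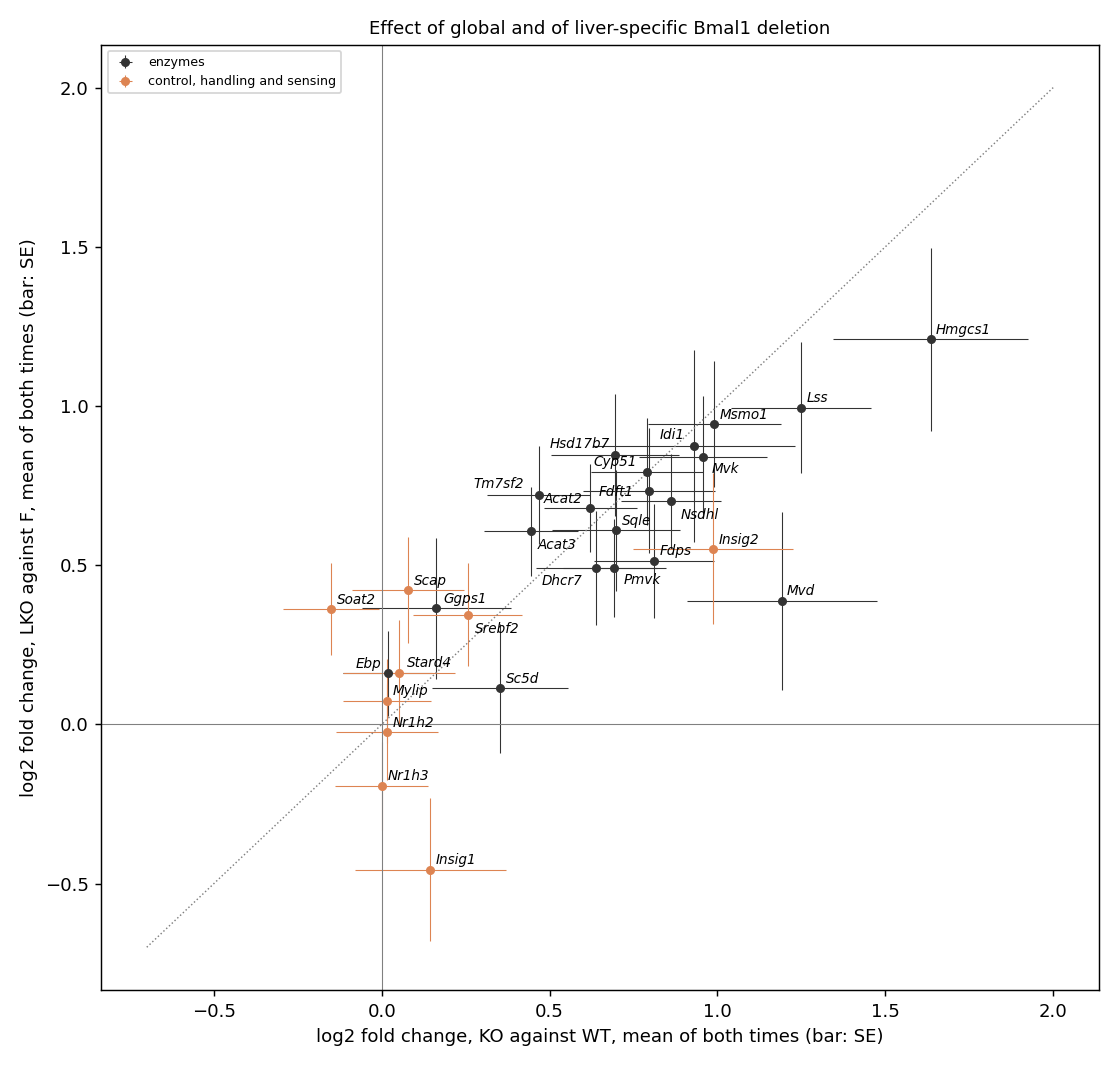
Log2 difference of KO against WT (horizontal) and of LKO against F (vertical), each the mean of both times, for the 29 members, with bars of 1 SE and a dotted line of equality. Hmgcs1 is farthest to the upper right, at 1.64 and 1.21, and Insig1 is the lowest, at -0.46 in LKO.

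The control lines themselves were not equal. F stood above WT for 3 members over both times, Mvd (1.11 ± 0.28, adjusted p = 0.04), Fdps (0.71 ± 0.18, adjusted p = 0.0376) and Insig1 (0.89 ± 0.23, adjusted p = 0.0388), with 2.54% of all genes called. Without the 2 F libraries with pancreatic transcripts none of the 29 was called, without the 3 libraries low in Ddx3y none of these 3 was, and with the replicate block 1 was. Leaving out any 1 of 7 of the 12 WT and F libraries also left none.

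Between the times of day, 3 members fell in WT, 2 in F, and none was called in KO or LKO. From CT2 to CT14, Hmgcs1 (-2.19 ± 0.42, adjusted p = 0.00441), Insig2 (-2.19 ± 0.35, adjusted p = 0.000843) and Acat3 (-0.86 ± 0.20, adjusted p = 0.0193) fell in WT, with 2.54% of all genes called, 1.44% lower and 1.10% higher, and 23 of 29 differences were negative. CT14 lay below CT2 without overlap for Acat3, Hmgcs1, Mvk, Insig2 and Nr1h2 in WT and above for Ggps1, with 10.5% of all genes separated in each direction. Hmgcs1 and Insig2 were 4.57-fold and 4.56-fold higher at CT2. A fit to the WT libraries alone kept 1 call, that of Insig2, with Hmgcs1 at adjusted p = 0.064 and Acat3 at adjusted p = 0.0712. The Acat3 call in WT was also lost in 5 of 6 fits without 1 library (adjusted p up to 0.114). In F, Acat3 (-0.86 ± 0.20, adjusted p = 0.0197) and Insig2 (-1.65 ± 0.34, adjusted p = 0.0105) fell, with 2.66% of all genes called, 1.33% in each direction. Acat3, Mvk, Dhcr7, Scap and Nr1h2 lay lower at CT14 in F without overlap (9.20% of all genes), and Sqle, Hsd17b7, Insig1 and Stard4 higher (9.97%). F CT2 replicate 3, at 136 CPM of Insig2, lay inside the range of CT14, and without the 2 libraries with pancreatic transcripts 1 call was left. Without F CT14 replicate 1 alone, none was left. The Acat3 call in F was lost in 3 of 6 fits without 1 library (adjusted p up to 0.115). In KO no member was called, no member had an unadjusted p under 0.05, DESeq2 and limma called 0, and 0% of all genes were called. Insig2 alone was separated in KO, higher at CT14 (4.09% of all genes), and no member was separated the other way (3.54%). In LKO none was called, with 0.848% of all genes called, 0.444% higher and 0.405% lower, 8 members had an unadjusted p under 0.05, limma called 0, and DESeq2 called 2, Acat2 (-0.71, adjusted p = 0.0257) and Pmvk (-0.93, adjusted p = 0.00517), both lower at CT14. There 10 members lay lower at CT14 without overlap, against 10.3% of all genes, and Hsd17b7 higher, against 10.4%. The 10 were Acat2, Acat3, Pmvk, Fdps, Nsdhl, Ebp, Sc5d, Dhcr7, Scap and Nr1h2. For the 8 members with an unadjusted p under 0.05 in LKO, the share of all genes under that cut is not given.

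The difference between these time effects was tested as an interaction. Against WT, the time effect in KO was larger by 2.49 ± 0.58 in log2 for Hmgcs1 (adjusted p = 0.0446) and by 2.62 ± 0.48 for Insig2 (adjusted p = 0.00724), with 0.799% of all genes called. An unadjusted p under 0.05 was found for 11 members, and the share of all genes under that cut is not given. All WT libraries of Insig2 at CT14 lay below those of CT2, and all KO libraries of CT14 lay above those of CT2. The Insig2 call was lost only without the 2 KO libraries that held spermatid transcripts (2.57, adjusted p = 0.0532), and that of Hmgcs1 in 9 of 12 fits without 1 library and without the libraries low in Ddx3y (2.21, adjusted p = 0.0839). Against F, the time effect in LKO gave no call, with 0.112% of all genes called; 2 members had an unadjusted p under 0.05, DESeq2 and limma called 0, and Insig2 stood at 1.52 ± 0.47, adjusted p = 0.402.

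Summed over the 20 enzymes, the pathway held 2502 ± 698 TPM (SD, n = 3) in WT and 3584 ± 812 in KO at CT2, and 1647 ± 325 in WT and 4004 ± 855 in KO at CT14. In F it held 2607 ± 224 TPM at CT2 and 2273 ± 509 at CT14, and in LKO 4925 ± 145 and 3887 ± 290. LKO libraries lay above F libraries at both times and KO above WT at CT14, whereas at CT2 KO (2668, 4215 and 3870) overlapped WT (2100, 3307 and 2098). Summed in CPM, WT at CT14 held 1985 to 2655 and KO 4192 to 5876. LKO lay above F in CPM at CT14 (4571 to 4953 against 2681 to 3953) and CT2 (5789 to 6522 against 3441 to 3831). KO (3715, 5102 and 4526) overlapped WT (2899, 4771 and 2662) in CPM at CT2. Fdps, with the highest median TPM, is in these sums, and most of its transcript also occurs in other genes. Within WT at CT2, replicate 2 lay above its group mean in 20 of 20 enzymes and replicate 3 in 2. In F at CT14, replicate 2 lay above in 19 and replicate 3 in 1. Single libraries thus stood high or low for nearly all enzymes at once.

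**Figure D5:**
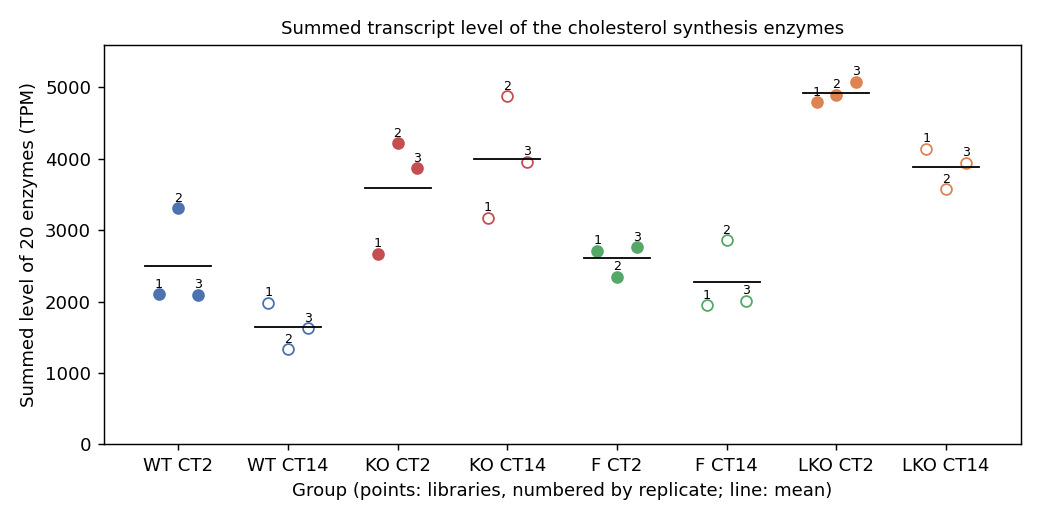
Deposited TPM summed over the 20 enzymes of cholesterol synthesis in each of 24 libraries (points), by genotype and time, with a line at the mean of 3 libraries. WT at CT14 is the lowest group (1332 to 1982 TPM) and LKO at CT2 the highest (4795 to 5082).

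Some of the members varied together among replicates. As a description over the 24 libraries, after subtracting each group's mean, the deviations of Mvk correlated with those of Fdft1 (r = 0.942) and Mvd (r = 0.919), Sqle with Lss (r = 0.904), and Hmgcs1 with Msmo1 (r = 0.871) and Cyp51 (r = 0.840). Over the 190 enzyme pairs the median r was 0.461, the lowest -0.621, and 84 were above 0.5. Of the controllers, Srebf2 was nearest to the enzymes (median r 0.530), followed by Insig1 (0.436), and Insig2 was far from them (0.106). Others did not follow the enzymes, among them Acat3 (0.073), Stard4 (0.044), Soat2 (-0.127) and Ggps1 (-0.207). The same measure was not computed over other genes. These points share library, depth and scaling.

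Of 36 tested genes of SREBP processing and sterol-regulated degradation, sterol export and liver X receptor targets, isoprenoid branches, and sterol trafficking and storage, none was called in KO against WT over both times or at CT2, and at CT14 only Scarb1, the receptor for high-density lipoprotein, rose (0.65 ± 0.18, adjusted p = 0.0378). That is 1 of 36, where 5.31% of all genes were called. In LKO over both times the paired sterol exporters Abcg5 (0.70 ± 0.16, adjusted p = 0.0186) and Abcg8 (0.79 ± 0.19, adjusted p = 0.0266) rose, and none fell, or 2 of 36 where 3.13% of all genes were called; counts this small are near those shares. At CT14 Lpcat3, a phospholipid-remodelling enzyme, was lower in LKO (-0.71 ± 0.18, adjusted p = 0.0439). At CT2 Abcg5 alone rose in LKO (adjusted p = 0.0162). Between the times, Stard5, a sterol carrier, was higher at CT14 in WT (0.64, adjusted p = 0.03), and Dhdds, of the dolichol branch, was lower at CT14 in F (adjusted p = 0.0138), as was Lpcat3 in LKO (adjusted p = 0.048). The median log2 difference of the 36 genes in KO over both times was -0.07.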

How the data were processed

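Liver RNA of 24 libraries (3 per group, 8 groups) was measured. Per the submitters' processing notes, the tools were StringTie 1.3.1, HISAT2 2.2.1 and fastp 0.23.2, and the build was GRCm39. For the annotation release and the strand setting, the sources used here give no value. The authors deposited estimated counts per gene, which were whole numbers whose low values pile up at multiples of 4, and TPM per gene. The authors' deposited comparison tables, made with DESeq2 per the file headers, hold log2 fold changes and their SE, p-values and adjusted p-values, the baseMean signal (a mean normalised level) and the test statistic, a score; only log2 changes and adjusted p-values were read from them.

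Counts were fitted with edgeR 4.0.16 in R 4.3.3 (filterByExpr with a minimum count of 10 and a total of 15, TMM scaling, robust quasi-likelihood fit of 8 group means over all 24 libraries), and p-values were adjusted by Benjamini-Hochberg over 20514 genes, with calls under 0.05. SE was taken from the log2 change and its F. The fit was also run on simulated counts drawn independently for each gene. Such counts lack single libraries that stand high or low for nearly all enzymes at once. No conclusion on counts of members is drawn from them. Libraries totalled 88995259 to 131544733 counts, and the lowest count of any member in a library was 159 (Ggps1). Replicates correlated at r 0.933 to 0.973 and none were identical.

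Members and gene lists were chosen with earlier results of these data known. Values in every library are given for members called in a knockout or time comparison and for Hmgcs1, Srebf2, Insig1 and Insig2, and the rest by range. Alternatives were DESeq2 1.42.0, limma 3.58.1 on log2(TPM + 1) and log2(TPM + 0.1), RLE scaling, no filter, counts divided by 4, a replicate block, and libraries left out; a fit to the compared groups alone was added after seeing the data. Same-numbered replicates of compared groups deviated from their group means with r from -0.146 to 0.312 in 24 pairs. Only in LKO against F at CT2 were all 3 pairs over 0.1 (0.180, 0.143 and 0.312), so the blocked value stands beside that result; the labels do not say that a number marks a shared litter or day. Shared sequence and overlaps were read from GENCODE vM21 transcripts. Some items of the pathway are not reported here.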

Additional observations from a re-analysis of the deposited data

Results flagged for a closer look

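The time effects of 2 members differed between KO and WT by the interaction test. For Hmgcs1 the CT14 against CT2 log2 difference was -2.19 ± 0.42 in WT and 0.30 ± 0.40 in KO, a difference of 2.49 ± 0.58 (adjusted p = 0.0446, edgeR). For Insig2 it was -2.19 ± 0.35 in WT and 0.43 ± 0.34 in KO, a difference of 2.62 ± 0.48 (adjusted p = 0.00724). Insig2 was lower at CT14 in 3 of 3 WT libraries and higher in 3 of 3 KO libraries, whereas for Hmgcs1 the KO libraries of both times overlapped. Hmgcs1 in WT at CT2 was spread over 409, 888 and 319 CPM; without the highest of these, replicate 2, its difference was 1.92 and adjusted p 0.157.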

How the results depend on the processing

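No called member reversed its direction under any setting run. For KO against WT the members called over both times (15) ranged from 12 to 17 over the settings other than single libraries left out, at CT14 (14) from 13 to 17, and at CT2 all gave 0. Over both times, LKO against F (11) gave 17 with limma on log2(TPM + 1) and 5 without the 2 F libraries with pancreatic transcripts. At CT2, LKO against F (1) gave 0 without a filter, 7 with DESeq2, 6 with limma on either TPM scale, 2 with the replicate block, 2 with counts divided by 4, 0 without the 3 libraries low in Ddx3y and 0 with the compared groups alone. At CT14, LKO against F (2) gave 4 with DESeq2, 6 with limma on either scale, 1 without the pancreatic libraries, 5 without the libraries low in Ddx3y and 9 with the compared groups alone. CT14 against CT2 gave 1 in WT (3) with the compared groups alone; in F (2) 1 without the pancreatic libraries and 0 with the compared groups alone; and in LKO (0) 2 with DESeq2 and 1 with counts divided by 4. The time effect in KO minus that in WT (2) gave 1 without a filter, with limma on either scale, without the 2 KO libraries with spermatid transcripts, without the libraries low in Ddx3y and with the compared groups alone. F against WT (3) gave 1 with limma on log2(TPM + 1), 1 with the replicate block, 0 without the pancreatic libraries, 1 without the libraries low in Ddx3y and 1 with the compared groups alone. The cause of these changes was not tested, and the share of all genes called under each setting is not given beside these counts. The replicate block moved no other count of members by over 1.5 times: it gave 15 for KO against WT over both times, 14 at CT14, 10 for LKO against F over both times and 3 at CT14.

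Leaving out 1 library at a time, members called ranged from 10 to 16 for KO against WT over both times, 0 to 1 at CT2 (1 without WT CT2 replicate 2) and 9 to 15 at CT14. For LKO against F they ranged from 7 to 12 over both times, 0 to 3 at CT2 and 0 to 2 at CT14 (0 without F CT14 replicate 1 or 3 or LKO CT14 replicate 1 or 2). For the time effect they ranged from 2 to 3 in WT, 0 to 0 in KO, 0 to 3 in F (0 without F CT14 replicate 1) and 0 to 0 in LKO. For the interactions they ranged from 1 to 2 for KO and 0 to 1 for LKO, and from 0 to 0 for KO minus LKO and 0 to 3 for F against WT. With limma on log2(TPM + 1), which differs from the edgeR fit in both the test and the scaling, a larger share of all calls was higher: over both times 1363 of 1690 in KO against WT, against 638 of 1107 with edgeR, and 1469 of 1645 in LKO against F, against 348 of 642; on the TPM scales the median of all genes was 0.06 to 0.21 in the knockout comparisons. The lowest count of any member was 159, in Ggps1, where depth bears most.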
